A study of Mus musculus with 40 samples.

Results

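Transcripts of 10 amino acid transporter genes were followed in 4 tissues of mice exposed to cold or kept at thermoneutrality, namely the brown fat (BAT), the inguinal and the epididymal white fat (iWAT and eWAT) and the liver. The genes, Slc3a2, Slc7a8, Slc7a10, Slc7a5, Slc7a11, Slc7a1, Slc1a5, Slc38a2, Slc38a1 and Slc38a4, were taken by symbol from the deposited count table. All 10 were found among its 53863 symbols, 37176 of which had a count. The animals were wild-type adult C57BL/6 mice housed at 22 °C on a standard diet. They spent 24 h at 4 °C (cold) or 24 h at 30 °C (thermoneutral) before the tissues were taken. Each of the 4 tissues had 5 cold and 5 thermoneutral libraries, 40 libraries in 8 groups. Sex was not given in the sources used here.

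Amino acid transporters move amino acids across the plasma membrane, where these feed protein synthesis, the nutrient-sensing kinase complex mTORC1 and the making of glutathione. Several are exchangers built of a light chain that carries the amino acids and a heavy chain, encoded by Slc3a2 (4F2hc or CD98), that brings the light chain to the cell surface. Slc7a8 (LAT2) and Slc7a5 (LAT1) encode light chains for large neutral amino acids, Slc7a10 (Asc-1) a light chain for small neutral amino acids, and Slc7a11 (xCT) the light chain that takes up cystine in exchange for glutamate. Slc7a10 is used as a surface marker of white adipocytes. Slc7a1 (CAT-1) carries arginine and lysine without a heavy chain, Slc1a5 (ASCT2) exchanges glutamine and other small neutral amino acids with sodium, and the Slc38 genes encode sodium-coupled carriers (SNAT1, SNAT2 and SNAT4). Several of these genes are known targets of the transcription factor ATF4, which acts when amino acids are short.

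Promoter sequences of 7 of the 10 genes, in 10 windows, were held by the RefSeq table for GRCm38.p6. Those held for genes called higher in cold BAT are printed, since the results turn on these transcripts, and that of Slc7a11 because it holds motif matches. The 250 bases before the RefSeq start were chr19:8713898-8714147 for Slc3a2, chr14:54781887-54782136 for Slc7a8, chr15:96699729-96699978 for Slc38a2 and chr3:50443614-50443863 for Slc7a11, all on the minus strand, and chr7:35186135-35186384 on the plus strand for Slc7a10. The starts used for Slc3a2 and Slc7a8 lie inside the spans that GENCODE gives these genes. All printed bases of Slc3a2 and part of those of Slc7a8 are thus within the gene. Those of Slc38a2 and Slc7a11 begin at the edge of the span. Each is written 5′ to 3′ along the gene, and capitals mark motif matches.
Slc3a2: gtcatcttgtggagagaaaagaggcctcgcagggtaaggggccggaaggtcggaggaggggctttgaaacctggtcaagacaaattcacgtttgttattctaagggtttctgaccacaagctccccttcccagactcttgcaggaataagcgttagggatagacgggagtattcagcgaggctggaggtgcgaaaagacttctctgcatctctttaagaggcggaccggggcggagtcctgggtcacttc
Slc7a8: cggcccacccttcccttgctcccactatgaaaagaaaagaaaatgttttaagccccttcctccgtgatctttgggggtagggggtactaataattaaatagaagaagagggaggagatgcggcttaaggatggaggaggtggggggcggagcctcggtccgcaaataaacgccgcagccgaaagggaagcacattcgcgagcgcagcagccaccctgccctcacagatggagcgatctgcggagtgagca
Slc7a10: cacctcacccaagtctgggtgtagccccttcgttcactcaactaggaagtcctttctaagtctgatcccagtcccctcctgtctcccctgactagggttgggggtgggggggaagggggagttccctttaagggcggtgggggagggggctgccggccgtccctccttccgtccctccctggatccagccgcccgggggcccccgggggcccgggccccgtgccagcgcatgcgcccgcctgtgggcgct
Slc38a2: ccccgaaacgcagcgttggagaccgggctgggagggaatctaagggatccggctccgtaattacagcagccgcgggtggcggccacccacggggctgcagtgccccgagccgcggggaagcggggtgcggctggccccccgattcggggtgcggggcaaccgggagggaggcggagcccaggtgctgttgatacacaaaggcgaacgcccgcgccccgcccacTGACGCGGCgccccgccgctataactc
Slc7a11: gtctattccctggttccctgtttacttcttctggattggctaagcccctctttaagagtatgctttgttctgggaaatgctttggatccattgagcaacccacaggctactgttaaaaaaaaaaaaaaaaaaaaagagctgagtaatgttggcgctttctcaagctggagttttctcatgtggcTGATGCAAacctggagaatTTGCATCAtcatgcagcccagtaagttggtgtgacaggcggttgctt
The windows of 300 bases, which add 50 bases after the gene start, were searched on both strands for 3 motifs. The core of the C/EBP-ATF response element (TGATGNAA) was found only in Slc7a11, on the plus strand at -66 and on the minus strand at -47 from the gene start, and 3.97% of all 32851 windows in the table held a match. The antioxidant response element core (TGACNNNGC, in 12.4% of windows) matched once in the Slc38a2 window and once in a Slc7a1 window. No window of these genes held the short CRE site (TGACGT, in 7.51% of windows). A match is a string of letters and not evidence of a bound site.

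Levels are in CPM, read counts scaled to a common library size over all 40 libraries, whose totals lay between 46508261 and 86681722. A change is the log2 ratio of cold to thermoneutral within a tissue with its standard error (SE) from edgeR's quasi-likelihood test. It counts as called where the p adjusted by Benjamini-Hochberg over all genes tested in that tissue was below 0.05. Adipocyte markers were present in all adipose libraries (summed CPM 9814 or more for 8 genes) and near their floor in liver (67.8 or less), where hepatocyte markers summed to 162200 or more. A few libraries stood apart. Cold BAT library 1 was high in a list of 21 ATF4 and integrated stress response genes that contains none of the 10 transporters (mean log2 CPM 5.45, against 3.58 to 4.17 in the other cold BAT libraries and 3.42 to 4.23 in thermoneutral BAT). Cold eWAT library 1 held RNA of epididymis markers (5 genes, mean log2 CPM 7.11, against -2.49 to 0.37 in the other cold eWAT libraries and -2.24 to 2.24 in thermoneutral eWAT). By summed CPM cold eWAT library 4 was also high in these markers, as given below for Slc7a11, while thermoneutral eWAT had 44.2 CPM or less. Fits without cold eWAT library 1 still hold library 4. Lymphocyte markers varied widely in iWAT (11 genes, summed CPM 3.28 to 397 in the cold and 62.5 to 822 at thermoneutrality). Thermoneutral liver library 1 was the liver library highest in adipocyte markers (mean log2 CPM 2.05, against -0.60 or less in the other thermoneutral livers and -0.47 or less in cold livers). The 5 thermoneutral liver columns had been joined to the other 35 columns from a separate table, so for liver the exposure and that table cannot be told apart. The p-values measure the spread between these samples. Whether a replicate number stands for 1 mouse in all tissues is not given in the labels.

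In BAT 6 of the 10 transcripts were called, a share like that of all genes in this tissue. Slc7a8 rose 20.6-fold, Slc3a2 5.52-fold, Slc7a10 4.82-fold, Slc7a5 3.80-fold and Slc38a2 2.33-fold, while Slc1a5 fell to 0.43 of its thermoneutral level. Over the whole tissue the calls took in 60.2% of 15288 genes (30.2% rose, 30.0% fell). The same 6 genes were called without cold BAT library 1. The median change of the 10 genes in BAT was 1.57 on the log2 scale, and that of all tested genes was -0.04. In iWAT Slc7a10, Slc3a2 and Slc38a2 rose and 0 of the 10 fell (11.5% of 16771 genes called, 7.20% higher and 4.29% lower, 5 of the 10 at an unadjusted p under 0.05). Of all iWAT calls 62.7% were higher, but 46.1% where library totals were the scaling. Brown adipocyte markers were also higher in cold iWAT, with 4 of 5 called (median 2.59) and summed CPM of 133 to 1304 in the cold and 45.0 to 101 at thermoneutrality. Their part in the 3 rises was not tested. In eWAT Slc3a2 alone rose (3.78% of 19123 genes called, 1.77% higher and 2.00% lower). In liver edgeR called 0 of the 8 genes tested (1.66% of 14472 genes called), 3 of them had an unadjusted p under 0.05, DESeq2 called 2, and 3 were called without cold liver library 5. The median changes were -0.12 in iWAT, 0.57 in eWAT and 0.14 in liver, beside -0.05, -0.05 and 0.01 for all genes tested.

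**Figure D1:**
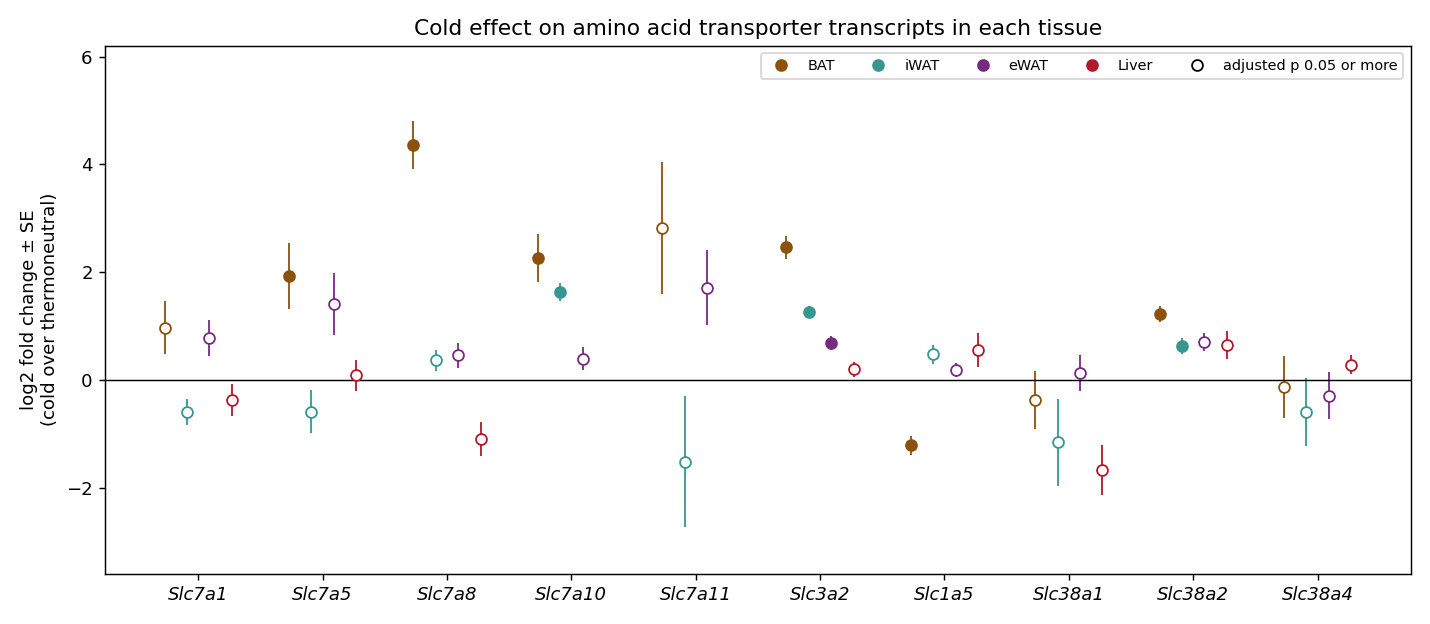
Log2 fold change of cold over thermoneutral (vertical axis) for each of the 10 transporter transcripts (horizontal axis) in BAT, iWAT, eWAT and liver, with bars of 1 SE and filled points where the adjusted p was under 0.05. Slc7a8 in BAT has the highest point at 4.36, Slc3a2 is filled in all 3 adipose tissues, and Slc1a5 in BAT is the single filled point below 0. Slc7a10 and Slc7a11 were too low in liver to be tested.

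Slc3a2, the shared heavy chain (chr19:8706882-8723369, minus strand, GRCm38), was higher in the cold in all 3 adipose tissues. In BAT it had 281, 168, 128, 145 and 174 CPM in the cold libraries, against 26.7, 27.3, 36.3, 37.6 and 37.8 CPM in the thermoneutral ones. The cold libraries lay above all thermoneutral ones, with groups apart in either direction for 46.4% of all genes in BAT, and the change was 2.46 ± 0.21 (adjusted p = 2.79e-06). In bulk tissue more cells of a type and more RNA per cell cannot be told apart. Without cold BAT library 1 the change was 2.27 ± 0.14. In iWAT the 5 cold libraries held 159, 160, 144, 146 and 179 CPM and the thermoneutral ones 57.4, 57.6, 78.8, 67.1 and 59.2 CPM. The groups were again apart (11.3% of all genes in iWAT), with a change of 1.26 ± 0.11 (adjusted p = 0.000552). With the lymphocyte markers as a covariate it was 1.24 ± 0.14 (adjusted p = 0.0018).

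In eWAT Slc3a2 had 153, 120, 115, 121 and 102 CPM in the cold, against 81.9, 64.1, 83.6, 67.8 and 77.2 CPM at thermoneutrality. The groups did not overlap (7.50% of all genes in eWAT), cold library 1, the highest in epididymis markers, being the highest, and the change was 0.69 ± 0.13 (adjusted p = 0.0231). Without that library it was 0.61 ± 0.11 (adjusted p = 0.0287). Leaving out cold library 2 or 4 or thermoneutral library 4 or 5 left changes of 0.68 to 0.71 that just missed the threshold (adjusted p = 0.0505 to 0.0579). In the livers Slc3a2 averaged 48.6 ± 10.02 CPM in the cold and 45.1 ± 3.78 CPM at thermoneutrality (SD, n = 5 each), with overlapping groups and a change of 0.20 ± 0.14 (adjusted p = 0.408). The cold effect on Slc3a2 was smaller than in BAT by 1.14 ± 0.22 in iWAT, by 1.73 ± 0.22 in eWAT and by 2.33 ± 0.22 in liver, differences taken in a model of all 40 libraries (adjusted p = 0.000292, 4.06e-07 and 1.71e-09). It was also smaller in liver than in iWAT, by 1.19 ± 0.22 (adjusted p = 0.000895).

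Slc7a8, a light chain for large neutral amino acids (chr14:54722209-54781946, minus strand, GRCm38), had the largest change of the 10 genes. It had 32.7, 103, 79.5, 137 and 107 CPM in cold BAT, against 3.76, 3.34, 4.13, 3.01 and 8.64 CPM in thermoneutral BAT. The lowest cold library, number 1, was still above the highest thermoneutral one, and the change was 4.36 ± 0.45 (adjusted p = 2.01e-05), or 4.61 ± 0.34 without cold library 1. The other tissues gave much smaller differences, none called. In iWAT Slc7a8 averaged 20.2 ± 3.25 CPM in the cold and 15.4 ± 4.46 CPM at thermoneutrality (0.36 ± 0.20, adjusted p = 0.248). In eWAT it averaged 36.9 ± 13.6 CPM in the cold, where library 1 reached 60.8 CPM, and 26.7 ± 4.36 CPM at thermoneutrality (0.46 ± 0.24, adjusted p = 0.342).

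In liver Slc7a8 had 3.42, 2.64, 1.74, 2.72 and 4.58 CPM in the cold, against 10.4, 7.25, 8.63, 3.58 and 4.53 CPM at thermoneutrality. The groups overlapped at their edges and the difference was not called (-1.10 ± 0.32, adjusted p = 0.0752), although DESeq2 gave adjusted p = 0.0119 and the fit without cold liver library 5 gave adjusted p = 0.0216. The model of all 40 libraries also called it (-1.18 ± 0.33, adjusted p = 0.0159). Without thermoneutral liver library 1, the highest in Slc7a8, the difference fitted within liver was -0.91 ± 0.31 (adjusted p = 0.16). The cold effect on Slc7a8 was smaller than in BAT by 3.94 ± 0.45 in iWAT, 3.87 ± 0.45 in eWAT and 5.51 ± 0.48 in liver (adjusted p = 9.82e-08, 7.92e-08 and 1.8e-10). In liver it also lay below that in iWAT by 1.57 ± 0.45 (adjusted p = 0.0293) and below that in eWAT by 1.64 ± 0.45 (adjusted p = 0.0383). Of 40 fits that each left out 1 library, 7 lost the call against iWAT and 17 that against eWAT, with adjusted p up to 0.0719 and 0.123. The order of the tissues in Slc7a8 level was not the same at both exposures. In the cold BAT was highest, above eWAT by 1.31 ± 0.31 and iWAT by 2.18 ± 0.32 on the log2 scale, whereas at thermoneutrality BAT was below eWAT by 2.55 ± 0.33 and below iWAT by 1.75 ± 0.32, all 4 differences called. The excess of cold BAT over cold eWAT was not called with library totals as the only scaling (adjusted p = 0.276).

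Slc7a10, the light chain known from white adipocytes (chr7:35186385-35201114, plus strand, GRCm38), rose in both BAT and iWAT. In iWAT it had 273, 331, 246, 253 and 271 CPM in the cold, against 61.9, 82.4, 110, 107 and 71.7 CPM at thermoneutrality. The lowest cold library held over 2 times the highest thermoneutral one, and the change was 1.63 ± 0.17 (adjusted p = 0.00129). Adipocyte markers averaged more in the same groups (mean log2 CPM 10.8 to 11.3 in cold and 9.95 to 10.8 in thermoneutral iWAT), and their part in the result was not tested. With the lymphocyte markers as a covariate the change was 1.53 ± 0.19 (adjusted p = 0.00258).

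BAT had far less Slc7a10, with 9.54, 18.7, 16.3, 17.8 and 13.2 CPM in the cold and 3.22, 1.33, 2.77, 7.17 and 1.43 CPM at thermoneutrality. All cold libraries were above all thermoneutral ones (2.27 ± 0.45, adjusted p = 0.00133). The 8 adipocyte markers moved in both directions there, 2 being called higher and 4 lower. Their mean log2 CPM was 8.53 to 8.85 in cold and 8.85 to 9.41 in thermoneutral BAT, and their summed CPM 14500 to 17610 in cold and 9814 to 11450 in thermoneutral BAT. In eWAT the cold libraries were uneven, with 80.5, 203, 116, 184 and 128 CPM, against 115, 100.1, 107, 93.9 and 116 CPM at thermoneutrality. They lay on both sides of the thermoneutral group, the lowest being library 1, the highest in epididymis markers. The difference was not called (0.39 ± 0.22, adjusted p = 0.384), nor was it without that library (0.56 ± 0.17, adjusted p = 0.14). The cold effect was smaller in eWAT than in BAT by 1.83 ± 0.51 (adjusted p = 0.00761).

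In liver Slc7a10 was at 0 in 5 of 10 libraries and at 0.26 CPM or less in the rest, so it was not tested within that tissue. The model of all libraries called the cold effect in liver smaller than in BAT (adjusted p = 0.0463), but this rested on thermoneutral liver library 1, the library high in adipocyte markers, and the difference was 0.07 without it. Of 40 fits that left out 1 library 30 lost the call. Lrp3, a gene on the other strand, overlaps Slc7a10, and the kit does not keep the strand. Lrp3 rose in BAT by 0.49 (adjusted p = 0.00552) and differed by -0.29 in iWAT (adjusted p = 0.319), and reads of the overlap could have been counted for either gene. In liver Lrp3 averaged 18.5 CPM in the cold and 26.7 CPM at thermoneutrality, beside the 0.26 CPM or less of Slc7a10. The share of such reads was not tested.

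Slc7a5, the second light chain for large neutral amino acids (chr8:121881150-121907694, minus strand, GRCm38), was low in BAT and highest in eWAT. In cold BAT it had 9.62, 3.03, 1.35, 1.03 and 1.46 CPM, against 0.70, 0.57, 0.94, 0.97 and 1.26 CPM in thermoneutral BAT. The groups overlapped, the library high in stress response genes stood far above the rest, and the change was 1.93 ± 0.61 (adjusted p = 0.0178). Without that library the change was 1.01 ± 0.34 and was still called (adjusted p = 0.0266). In eWAT Slc7a5 had 126, 20.8, 19.95, 27.4 and 22.3 CPM in the cold and 13.0, 13.9, 24.1, 20.8 and 10.2 CPM at thermoneutrality. The first value is that of the library highest in epididymis markers, and the change of 1.41 ± 0.58 (adjusted p = 0.227) was 0.47 ± 0.23 without it (adjusted p = 0.39). A predicted gene on the other strand overlaps Slc7a5 and is not analysed here.

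In iWAT Slc7a5 averaged 3.53 ± 1.49 CPM in the cold and 5.12 ± 3.02 CPM at thermoneutrality (-0.59 ± 0.40, adjusted p = 0.352), and in liver 3.67 ± 1.24 and 3.67 ± 1.21 CPM (0.08 ± 0.29, adjusted p = 0.874). Its highest iWAT libraries, thermoneutral 1 with 10.2 CPM, cold 4 with 5.61 CPM and thermoneutral 5 with 5.53 CPM, were also the 3 highest in lymphocyte markers. With those markers as a covariate the iWAT difference was 0.04 ± 0.39. The cold effect in iWAT was smaller than in BAT by 2.44 ± 0.74 (adjusted p = 0.0168), by 1.49 without cold BAT library 1 (adjusted p = 0.122) and by 2.03 without thermoneutral iWAT library 1 (adjusted p = 0.0538).

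Slc7a11, the cystine and glutamate exchanger (chr3:49892526-50443614, minus strand, GRCm38), was the least abundant per length of the 4 light chains followed here in every adipose group. It was called in no tissue fitted by itself. Cold BAT had 8.20, 0.75, 0.11, 0.19 and 0.20 CPM, against 0.06, 0.12, 0.35, 0.30 and 0.55 CPM in thermoneutral BAT. The first of these, from the library high in stress response genes, was over 10 times the next, and the difference of 2.82 ± 1.23 (adjusted p = 0.071) was 0.24 ± 0.67 without it (adjusted p = 0.776). Without cold library 3 or 5, which left library 1 in, it was called (3.14 ± 1.16 and 3.12 ± 1.20, adjusted p = 0.0442 and 0.0499), as it was in the model of all 40 libraries (adjusted p = 0.0435). In iWAT the cold libraries had 0.08, 0.79, 0.33, 6.15 and 2.23 CPM and the thermoneutral ones 13.3, 4.25, 0.67, 0.12 and 7.76 CPM. The 3 highest, thermoneutral 1 and 5 and cold 4, were again the 3 highest in lymphocyte markers, and the difference was -1.52 ± 1.22 (adjusted p = 0.426), or 0.64 ± 0.84 with those markers as a covariate. The difference of the cold effect between iWAT and BAT, -4.22 with an SE of 1.501 (adjusted p = 0.0443), was -1.62 without cold BAT library 1 (adjusted p = 0.501), and 12 of 40 fits that left out 1 library lost the call.

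In cold eWAT Slc7a11 was high in libraries 1 and 4, with 4.91 and 4.81 CPM against 0.73 to 0.81 in the other 3, and thermoneutral eWAT had 0.36 to 1.09 CPM (1.71 ± 0.69, adjusted p = 0.218). These same libraries 1 and 4 had the highest summed epididymis markers, 2365 and 889 CPM, against 25.9 or less in the other cold eWAT libraries. The part of those cells in the values was not tested. Liver held 0.07 CPM or less in every library, with 5 of 10 at 0. Other annotated genes overlap Slc7a11, and those in the table were at 0.00707 CPM or less as group means.

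**Figure D2:**
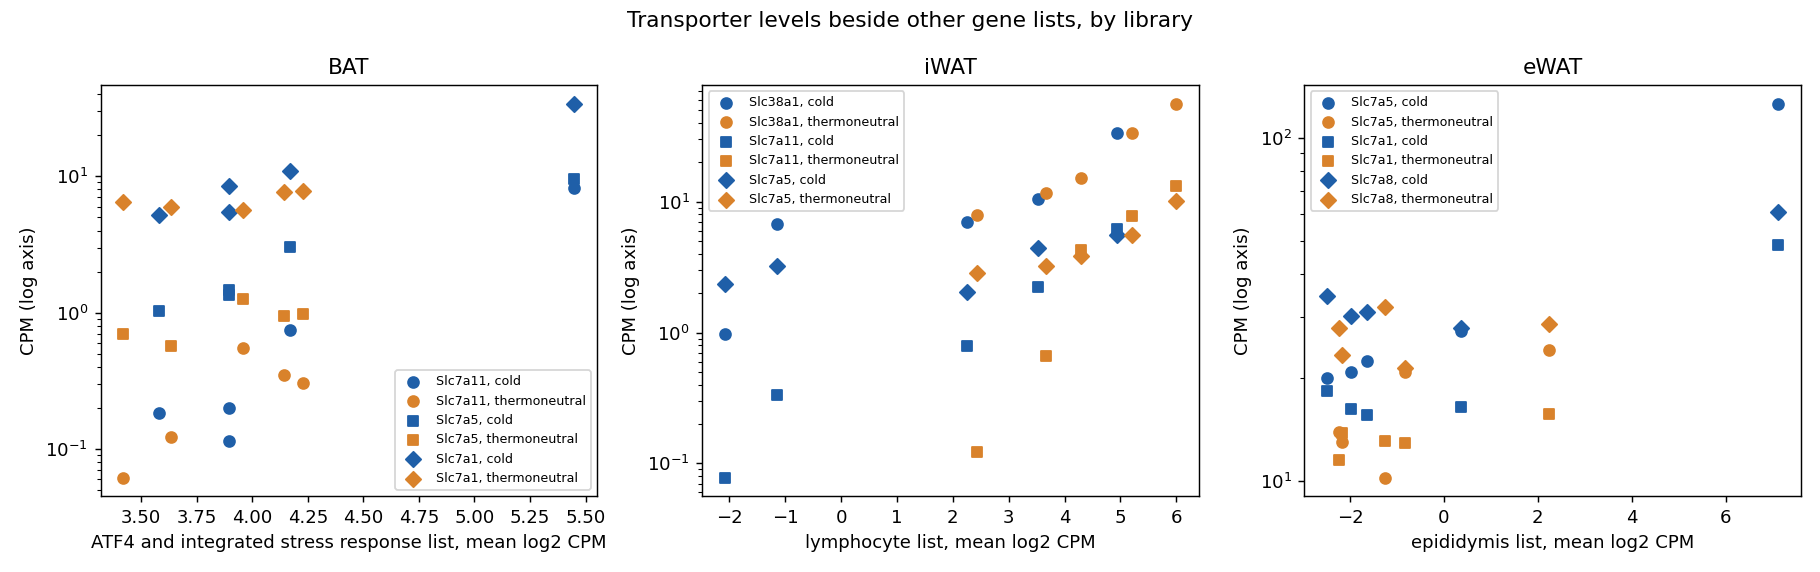
Levels of 3 transporter transcripts in CPM (log vertical axis) against the mean log2 CPM of another gene list in the same library (horizontal axis), for BAT with the ATF4 and integrated stress response list, iWAT with lymphocyte markers and eWAT with epididymis markers. Each point is 1 transcript in 1 of 10 libraries, blue for cold and orange for thermoneutral. Cold BAT library 1 at 5.45 and cold eWAT library 1 at 7.11 lie far to the right with the highest transporter values, and in iWAT Slc38a1, Slc7a11 and Slc7a5 are highest in the libraries with the most lymphocyte markers.

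Heavy and light chains were set side by side per kilobase of exon, so that genes of different length can be compared. The light chains here are Slc7a5, Slc7a8, Slc7a10 and Slc7a11 only. Further light chains that pair with Slc3a2, Slc7a6 among them, were not summed. In cold BAT Slc3a2 had 59.4 ± 19.8 CPM per kb and the 4 light chains together 30.8 ± 9.77, against 10.97 ± 1.87 and 2.91 ± 1.03 in thermoneutral BAT (SD, n = 5 each). Both sides of the pair thus stood higher in the cold, with heavy chain above light chains in each of the 10 BAT libraries (ratios of 1.14 to 5.78 in the cold and 2.80 to 5.58 at thermoneutrality). In iWAT the order was the other way, with 52.2 ± 4.56 for Slc3a2 and 136 ± 15.4 for the light chains in the cold, and 21.2 ± 3.02 and 46.8 ± 9.90 at thermoneutrality. The ratio of heavy to light chains was 0.385 ± 0.0408 in cold iWAT and 0.459 ± 0.0526 in thermoneutral iWAT, 0.464 ± 0.0915 in cold eWAT and 0.401 ± 0.0262 in thermoneutral eWAT, and 9.50 ± 3.08 in cold liver and 6.03 ± 2.30 in thermoneutral liver. In every tissue the ranges of the cold and thermoneutral ratios overlapped, in BAT only through cold library 1 (5.78). The other cold BAT libraries had ratios of 1.14 to 1.75, below every thermoneutral one. No test was run on these ratios.

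Among the 4 light chains summed, the one of highest mean differed by tissue and, in BAT and liver, also by exposure. In cold BAT Slc7a8 made up 70.3 ± 12.2% of light chain CPM per kb and Slc7a10 24.1 ± 4.33%. In thermoneutral BAT Slc7a10 had the larger mean share, 48.8 ± 20.7% beside 41.2 ± 18.4% for Slc7a8. Their ranges over the libraries there were wide and overlapped (21.15 to 76.5% and 16.6 to 66.0%). In iWAT Slc7a10 made up 95.4 ± 0.945% in the cold and 87.2 ± 3.79% at thermoneutrality, and the 2 ranges did not overlap. In eWAT its share was 75.3 ± 18.5% in the cold, with 42.8% in the library highest in epididymis markers, and 81.7 ± 2.73% at thermoneutrality. In liver the light chains were low and Slc7a8 made up 41.0 ± 5.14% in the cold and 60.1 ± 6.85% at thermoneutrality, again without overlap. Of the 4, Slc7a5 was the most abundant in cold liver, with 1.04 ± 0.35 CPM per kb beside 0.74 ± 0.26 for Slc7a8. In thermoneutral liver Slc7a8 had 1.68 ± 0.69 and Slc7a5 1.04 ± 0.34. No test was run on these shares.

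**Figure D3:**
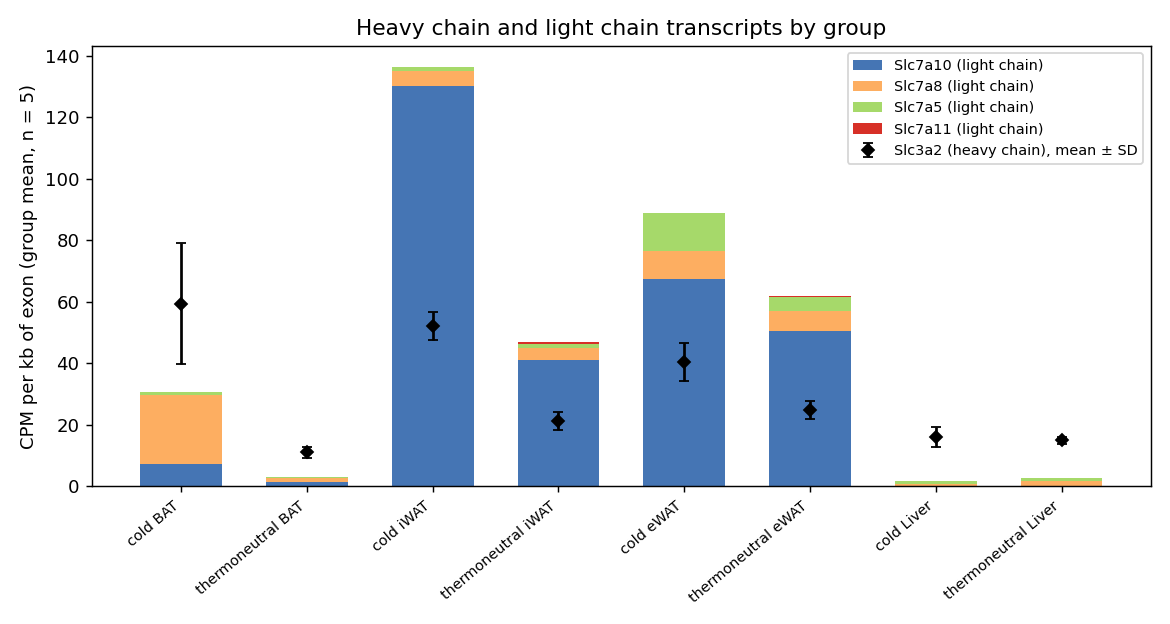
Group means (n = 5) in CPM per kb of exon of the 4 light chains, stacked as bars, and of the heavy chain Slc3a2, as black diamonds with bars of 1 SD, for the 8 groups. Diamonds lie above the bars in BAT and liver and below them in iWAT and eWAT, and the cold iWAT bar is almost wholly Slc7a10.

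Slc7a1, the carrier of arginine and lysine (chr5:148327410-148399904, minus strand, GRCm38), was not called in any tissue fitted by itself. Cold BAT had 34.0, 10.98, 5.45, 5.22 and 8.53 CPM, against 6.44, 5.92, 7.72, 7.86 and 5.62 CPM in thermoneutral BAT. Apart from cold library 1 the groups covered much the same range, and the difference of 0.97 ± 0.49 (adjusted p = 0.116) was 0.23 ± 0.22 without that library. The model of all 40 libraries, which holds cold BAT library 1 as well, called it (0.94 ± 0.36, adjusted p = 0.0382). In eWAT cold library 1 held 48.7 CPM and the other 4 held 15.5 to 18.3 CPM, against 11.5 to 15.7 CPM at thermoneutrality (0.78 ± 0.34, adjusted p = 0.25; 0.31 ± 0.10 and adjusted p = 0.172 without library 1). In iWAT Slc7a1 averaged 8.15 ± 1.78 CPM in the cold and 11.9 ± 4.10 CPM at thermoneutrality (-0.60 ± 0.24, adjusted p = 0.128). Liver was lowest, with 1.01 ± 0.24 CPM in the cold and 1.39 ± 0.54 CPM at thermoneutrality (-0.38 ± 0.30, adjusted p = 0.451). The cold effect was smaller in iWAT than in BAT by 1.48 ± 0.51 (adjusted p = 0.0372), a call lost without cold BAT library 1 (adjusted p = 0.261) and in 8 other fits that left out 1 library (adjusted p = 0.0573 to 0.093).

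Slc1a5, the glutamine exchanger (chr7:16781340-16798274, plus strand, GRCm38), was the only 1 of the 10 genes called lower in BAT with no library left out. Cold BAT had 179, 294, 279.7, 358 and 270.1 CPM, against 547, 625.2, 682, 832 and 584 CPM in thermoneutral BAT. Every cold library was below every thermoneutral library (-1.22 ± 0.17, adjusted p = 8.43e-05), and the change was -1.07 ± 0.13 without cold library 1. In iWAT the libraries lay the other way, with 1378, 1403, 1393, 1236 and 1283 CPM in the cold and 601, 1128, 1035, 1129 and 817 CPM at thermoneutrality. The groups did not overlap, but the difference was not called (0.47 ± 0.17, adjusted p = 0.103), while DESeq2 gave adjusted p = 0.0422. The 2 lowest thermoneutral values were those of libraries 1 and 5, the highest in lymphocyte markers, and with those markers as a covariate the difference was 0.32 ± 0.19 (adjusted p = 0.309).

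Slc1a5 averaged 1005 ± 149 CPM in cold and 873 ± 123 CPM in thermoneutral eWAT (0.18 ± 0.13, adjusted p = 0.543). In liver it was low, with 5.53 ± 2.10 CPM in the cold and 4.01 ± 1.59 CPM at thermoneutrality (0.55 ± 0.32, adjusted p = 0.291). The cold effect in BAT differed from that in each other tissue: it was higher in iWAT by 1.75 ± 0.32, in eWAT by 1.45 ± 0.32 and in liver by 1.71 ± 0.32 (adjusted p = 0.000119, 0.00075 and 0.000124). In level, BAT was below iWAT and eWAT in the cold by 2.28 ± 0.23 and 1.86 ± 0.23 on the log2 scale (adjusted p = 3.52e-10 and 1.11e-08). At thermoneutrality the same differences were 0.53 ± 0.22 and 0.42 ± 0.22 and were not called (adjusted p = 0.0508 and 0.103).

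Slc38a2 (SNAT2), the system A carrier known to rise when cells lack amino acids, was the Slc38 gene that changed. It lies beside Slc38a1 and Slc38a4 on the minus strand of chromosome 15 of GRCm38 (chr15:96687392-96699730, with Slc38a1 at chr15:96571418-96642913 and Slc38a4 at chr15:96994820-97055956). Cold BAT had 166, 118, 117, 106 and 126 CPM, against 43.6, 60.9, 60, 68.9 and 43.0 CPM in thermoneutral BAT. All cold libraries were above all thermoneutral ones, for a change of 1.22 ± 0.16 (adjusted p = 4.54e-05). In iWAT the cold libraries had 98.1, 70.1, 66.5, 75.4 and 78.5 CPM and the thermoneutral ones 59.6, 38.9, 46.9, 45.6 and 53.3 CPM. These groups did not overlap either (0.63 ± 0.15, adjusted p = 0.0245), and the call was lost without cold library 1 (0.52 ± 0.13, adjusted p = 0.0539), without thermoneutral library 2 (0.56 ± 0.15, adjusted p = 0.0582) or 3 (0.61 ± 0.17, adjusted p = 0.0525), and with the lymphocyte covariate (0.62 ± 0.19, adjusted p = 0.0611).

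In eWAT Slc38a2 had 89.5, 61.8, 75.0, 55.4 and 53.9 CPM in the cold, against 40.8, 33.4, 39.7, 48.2 and 42.8 CPM at thermoneutrality. The groups were apart, with a difference of 0.70 ± 0.17 that just missed the threshold (adjusted p = 0.0539; DESeq2 gave adjusted p = 0.00157 and the model of all 40 libraries 0.0391). Liver had the highest levels, with 154, 258, 318, 353 and 154 CPM in the cold and 153, 161, 228, 154 and 148 CPM at thermoneutrality. There 3 cold libraries were above all thermoneutral ones and 2 were among them (0.65 ± 0.26, adjusted p = 0.147), and without cold library 5 the change was 0.79 ± 0.24 (adjusted p = 0.0415). The estimates were thus above 0 in all 4 tissues, and no difference of the cold effect between tissues was called for Slc38a2.

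Slc38a1 (SNAT1), a carrier of glutamine and other small neutral amino acids, tracked the lymphocyte markers in iWAT. Its cold iWAT libraries had 0.97, 7.05, 6.80, 33.3 and 10.4 CPM and its thermoneutral ones 56.2, 15.1, 11.7, 7.94 and 33.7 CPM. Thermoneutral 1 and 5 and cold 4 were the 3 highest in both Slc38a1 and the lymphocyte markers, and the difference was -1.16 ± 0.80 (adjusted p = 0.356), or 0.14 ± 0.55 with those markers as a covariate. In liver Slc38a1 had 0.98, 0.65, 0.48, 0.96 and 0.94 CPM in the cold, against 6.55, 1.77, 2.91, 1.15 and 1.27 CPM at thermoneutrality. The groups did not overlap (5.45% of all genes in liver), yet the difference was not called (-1.67 ± 0.47, adjusted p = 0.0716), and it was -1.05 ± 0.34 without thermoneutral library 1 (adjusted p = 0.145) and -1.72 ± 0.53 without cold library 5 (adjusted p = 0.0462). Lymphocyte markers moved with it: of 11 markers, 0 in cold and 10 in thermoneutral liver had a group mean of 1 CPM or more, and their sums were 1.52 to 8.07 CPM in the cold and 21.6 to 212 CPM at thermoneutrality. Other lists moved in liver as well, with median changes of -1.10 for macrophage, -1.16 for erythroid and 1.45 for mesothelial markers. The part of these cells in the result was not tested.

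BAT had little Slc38a1, with 0.92, 3.59, 0.75, 0.37 and 0.49 CPM in the cold and 1.47, 1.41, 1.43, 1.73 and 2.08 CPM at thermoneutrality. Only cold library 2 exceeded the thermoneutral group, and it was also the BAT library highest in macrophage markers (8 genes, summed CPM 231, against 38.9 to 67.5 in the other cold BAT libraries and 83.8 to 140.5 in thermoneutral BAT). The difference was -0.38 ± 0.54 (adjusted p = 0.564) with it and -1.28 ± 0.28 (adjusted p = 0.002) without it. In eWAT Slc38a1 averaged 14.3 ± 5.41 CPM in the cold and 13.1 ± 4.69 CPM at thermoneutrality (0.12 ± 0.33, adjusted p = 0.895).

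Slc38a4 (SNAT4), a carrier of neutral amino acids that is imprinted in mice, marked the liver. It had 1430, 2055, 1925, 1960 and 1767 CPM in cold livers, against 1620, 1231, 1616, 1853 and 1692 CPM in thermoneutral livers. The groups overlapped (0.28 ± 0.17, adjusted p = 0.314), and every liver library was far above every adipose library. Adipose means were 1.17 ± 0.76 CPM in cold and 1.32 ± 0.88 CPM in thermoneutral BAT, 2.33 ± 1.22 and 3.47 ± 3.90 CPM in cold and thermoneutral iWAT, and 10.4 ± 5.29 and 12.7 ± 7.16 CPM in cold and thermoneutral eWAT. None of the 4 within-tissue differences was called (adjusted p = 0.314 to 0.856). In thermoneutral iWAT library 3 held 10.4 CPM and the rest 1.45 to 2.22 CPM, and the same library had skeletal muscle markers at a mean log2 CPM of 9.65, against -1.88 to 2.88 in the rest.

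**Figure D4:**
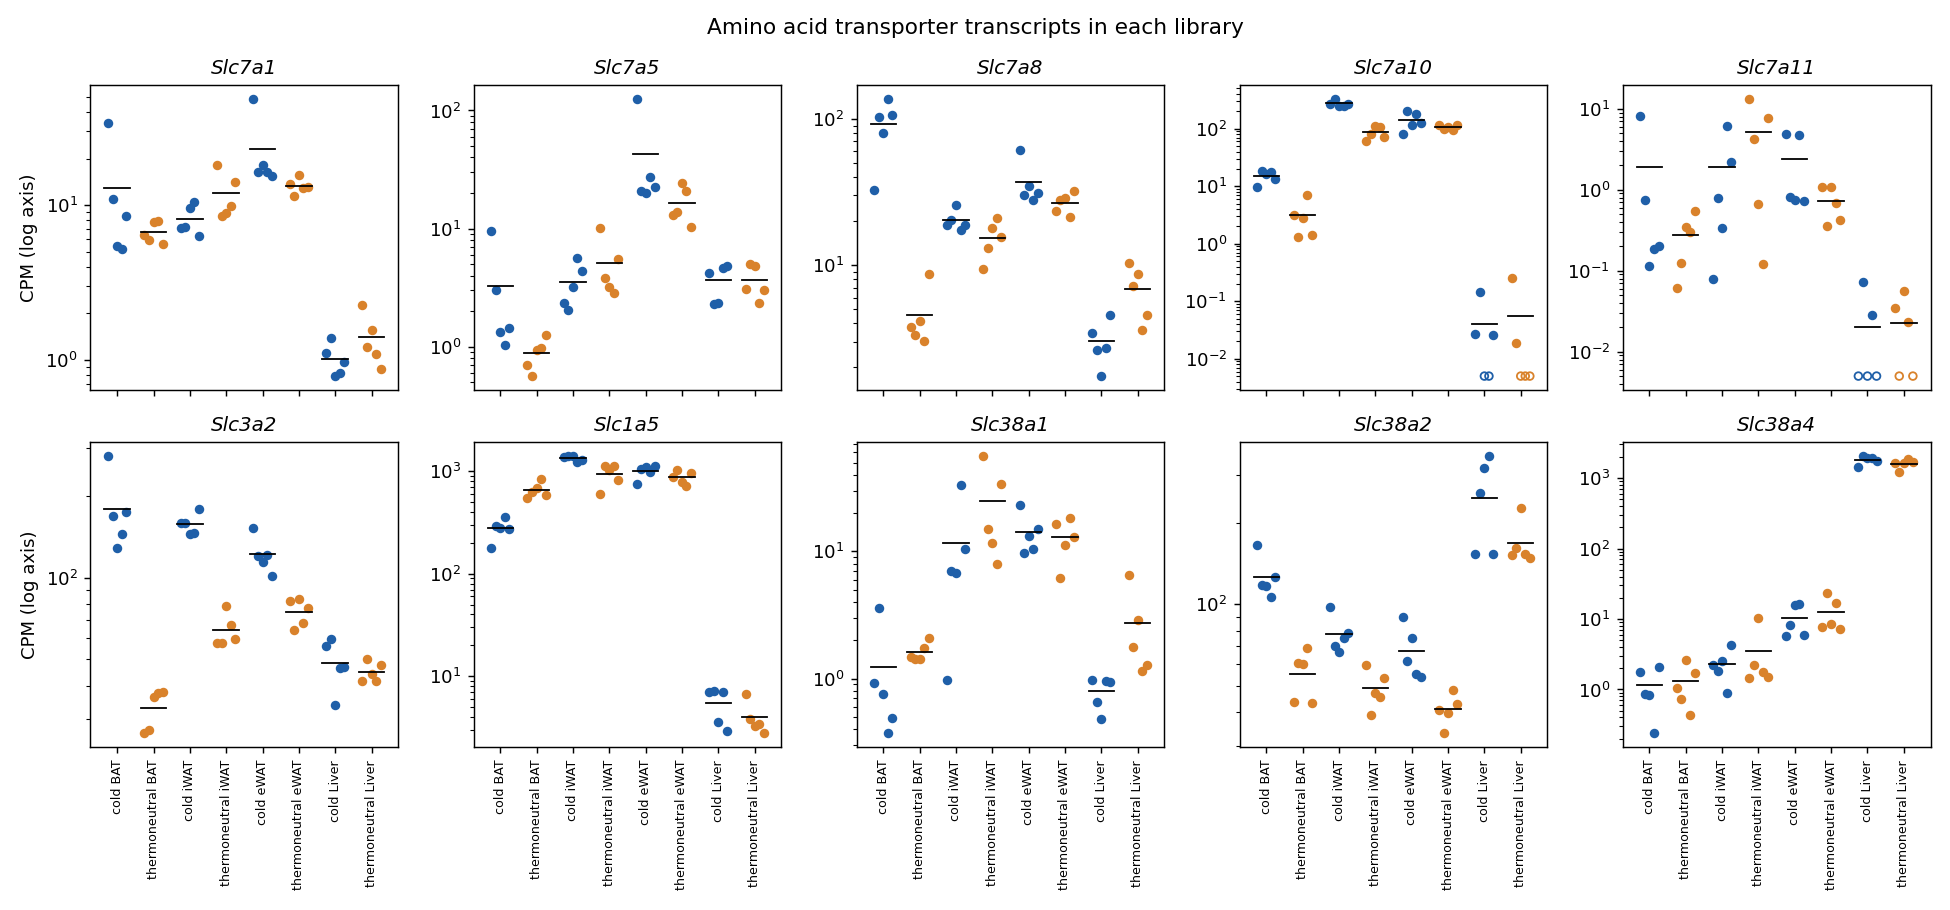
CPM on log axes of each of the 10 transporter transcripts in all 40 libraries, by group, cold in blue and thermoneutral in orange. Each point is a library, black lines are group means and open points on the lower edge are libraries at 0. Slc38a4 is near 1000 CPM or above in liver and below 25 CPM elsewhere, Slc1a5 shows the reverse, and single high points stand out in cold BAT for Slc7a1, Slc7a5 and Slc7a11 and in cold eWAT for Slc7a1 and Slc7a5.

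Per kilobase, Slc1a5 ranked first of the 10 genes in all 6 adipose groups (99.9 ± 23.2 CPM per kb in cold BAT and 237 ± 40.3 in thermoneutral BAT, 484 ± 27.0 in cold and 341 ± 82.95 in thermoneutral iWAT, 364 ± 54.0 in cold and 316 ± 44.5 in thermoneutral eWAT). In liver it gave way to Slc38a4 (443 ± 59.5 in the cold and 389 ± 55.5 at thermoneutrality), followed by Slc38a2 (53.1 ± 19.8 and 36.2 ± 7.14) and Slc3a2 (16.1 ± 3.32 and 14.9 ± 1.25). Slc7a10 was second in iWAT and eWAT at both exposures. In BAT the second place was held by Slc3a2 in the cold and by Slc38a2 at thermoneutrality. Between tissues, 46 of 60 differences in level were called in the cold and 45 of 60 at thermoneutrality, over 6 pairs of tissues. In the cold iWAT was called above BAT for 3 genes and below it for 2 (55.5% of all genes called), eWAT above BAT for 6 and below for 3 (69.9%), and eWAT above iWAT for 4 and below for 1 (38.3%). Cold liver was above BAT for 2 and below for 6 (62.6%), above iWAT for 2 and below for 7 (67.5%), and above eWAT for 2 and below for 8 (76.0%). At thermoneutrality iWAT was above BAT for 7 genes and below for 0 (47.3%), eWAT above BAT for 7 and below for 0 (61.9%), and eWAT above iWAT for 3 and below for 1 (36.9%). Thermoneutral liver was above BAT for 4 and below for 4 (63.4%), above iWAT for 2 and below for 7 (68.0%), and above eWAT for 2 and below for 8 (75.8%). Levels across tissues depend on the scaling: with library totals alone the median of all genes in cold eWAT over cold BAT was 1.33 in place of 0.41, and the Slc3a2 difference for that pair was 0.35 (adjusted p = 0.0651) in place of -0.55 ± 0.16 (adjusted p = 0.00235). The calls of Slc7a8 and Slc38a2 below BAT in this pair were lost as well (adjusted p = 0.276 and 0.998). So was that of Slc38a2 in cold iWAT below BAT (adjusted p = 0.799). Slc7a1 was no longer called above BAT without cold eWAT library 1 (adjusted p = 0.455) and in further fits that left out 1 library.

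By tissue order, Slc7a10 of eWAT and iWAT did not differ beyond the spread at thermoneutrality (0.30 ± 0.35 for eWAT over iWAT, adjusted p = 0.556), and iWAT and eWAT were above BAT, by 4.77 ± 0.42 and 5.07 ± 0.42 on the log2 scale. In the cold the eWAT level was below that of iWAT by 0.95 ± 0.36 (adjusted p = 0.0342). This call was lost without cold eWAT library 1 or 5 (adjusted p = 0.0552 and 0.0657). It was also lost with library totals as the scaling (adjusted p = 0.145) and with no filter (adjusted p = 0.0622). For Slc7a5 eWAT was above each other tissue at both exposures, by 3.62 ± 0.55 over iWAT in the cold and by 1.68 ± 0.51 at thermoneutrality (adjusted p = 4.08e-06 and 0.0101). Cold eWAT library 1, high in epididymis markers, held 126 CPM of Slc7a5 and the others 19.95 to 27.4. With single libraries left out, the cold difference over iWAT was 2.59 to 3.78 and stayed called. Slc7a1 was lowest in liver, below BAT by 3.67 ± 0.41 in the cold and by 2.26 ± 0.39 at thermoneutrality. For Slc38a2 liver was above BAT by 0.97 ± 0.19 in the cold and by 1.61 ± 0.20 at thermoneutrality, and iWAT and eWAT did not differ beyond their spread at either exposure (adjusted p = 0.413 in the cold and 0.325 at thermoneutrality). The same held for Slc1a5 in iWAT and eWAT (adjusted p = 0.143 in the cold and 0.744 at thermoneutrality).

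Comparing tissues for the size of the cold effect gave 60 differences, of which 17 were called, all but 3 of them against BAT. The counts were 6 of 10 for iWAT against BAT (18.9% of 20756 genes), 4 for eWAT against BAT (23.0%), 4 for liver against BAT (24.1%), 2 for liver against iWAT (6.35%), 1 for liver against eWAT (2.74%) and 0 for eWAT against iWAT (0.159%). Without cold BAT library 1 the calls for Slc7a1, Slc7a5 and Slc7a11 were lost. In each of 45 settings 11 of the 17 calls were kept, namely all 3 against BAT for Slc7a8, Slc3a2 and Slc1a5, the Slc7a10 difference of eWAT from BAT, and the Slc3a2 difference of liver from iWAT.

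Other amino acid transporters also changed in cold BAT, in both directions. Of 32 further genes, 23 were tested in BAT, where 7 rose and 10 fell (median -0.55), beside 30.2% of all BAT genes higher and 30.0% lower. Slc43a2 (LAT4), a uniporter of large neutral amino acids, rose by 3.66 ± 0.18 to 353 CPM in the cold, against 28.4 CPM at thermoneutrality. Slc36a1, a proton-coupled carrier found on lysosomes, rose by 1.71 ± 0.14, the taurine carrier Slc6a6 by 1.41 ± 0.13 and Slc7a6, a further light chain that pairs with Slc3a2, by 1.73 ± 0.18. In iWAT 2 of 29 rose, Slc7a6 (0.91 ± 0.09) and Slc6a6 (0.77 ± 0.14), and 1 fell, Slc38a10 (-0.72 ± 0.14). In eWAT Slc38a10 fell (-0.39 ± 0.07) and 0 of 30 rose, and in liver Slc16a10, a uniporter of aromatic amino acids, rose (1.08 ± 0.22, adjusted p = 0.0456) as the single call of 21 tested. The list's medians were 0.04 in iWAT, 0.10 in eWAT and -0.17 in liver.

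Genes of the ATF4 and integrated stress response moved in both directions. Of 21 tested in BAT 8 rose and 4 fell (median 0.31), a share of calls near the 60.2% of all BAT genes. Cold BAT library 1 stood apart in this list, as given above, while the other cold BAT libraries lay within the thermoneutral range of mean log2 CPM. In summed CPM the list ran from 1392 to 2359 in cold BAT (median 1510) and from 851.5 to 1413 in thermoneutral BAT (median 1160). The translation inhibitor Eif4ebp1 (-1.65 ± 0.12) and the stress-induced regulator Nupr1 (-1.40 ± 0.18) fell, while Vldlr, the very low density lipoprotein receptor (0.95 ± 0.14), and Ddit4, an inhibitor of mTORC1 (0.97 ± 0.14), rose. In iWAT 3 of 20 rose, Ddit4 (1.69 ± 0.16), Asns, which makes asparagine (1.46 ± 0.17), and Atf4 itself (0.55 ± 0.14), and Nupr1 fell (-0.63 ± 0.13). In eWAT Asns (1.12 ± 0.20), Ddit4 (1.06 ± 0.21) and the secreted stress factor Gdf15 (1.20 ± 0.28) rose and Nupr1 fell (-0.52 ± 0.10). In liver Gdf15 fell (-2.18 ± 0.47), the single call of 21. The list's medians were 0.16 in iWAT, 0.10 in eWAT and -0.35 in liver.

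Among genes of glutathione synthesis and of NRF2, the regulator of antioxidant genes, 8 of 14 rose and 2 fell in BAT (60.2% of all BAT genes called, 30.2% higher; median 0.42, and 0.27 in iWAT, 0.18 in eWAT and -0.034 in liver). Thioredoxin reductase Txnrd1 (1.295 ± 0.14), glutathione synthetase Gss (0.63 ± 0.11) and Nfe2l2, which encodes NRF2 (0.46 ± 0.09), were higher, and Gpx4, a peroxidase of lipid peroxides, was lower (-0.92 ± 0.10). In iWAT 3 of 15 rose, Gss (0.66 ± 0.13), glutathione reductase Gsr (0.36 ± 0.08) and the sulfiredoxin Srxn1 (0.62 ± 0.18), and in eWAT 2 of 15, Gclc, which starts glutathione synthesis (0.51 ± 0.10), and G6pdx (0.50 ± 0.11). In liver G6pdx, which supplies NADPH, fell (-1.98 ± 0.35). Slc7a11, whose cystine feeds glutathione synthesis, was called in none of these tissues fitted by itself.

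In the list of mTORC1 and its amino acid sensors 13 of 31 genes rose and 6 fell in BAT (median 0.18), again near the share of all BAT genes called (60.2%). The Rag GTPase Rragc (1.44 ± 0.07), Lamtor1 (1.07 ± 0.08) and Lamtor3 (1.04 ± 0.10) of the Ragulator that anchors the Rag proteins to lysosomes, and the folliculin partner Fnip1 (1.28 ± 0.11) had the smallest p. In iWAT 8 of 31 rose and 1 fell (11.5% of all genes called), with folliculin, Flcn (0.75 ± 0.12), Nprl3 (0.48 ± 0.08), the mTOR subunit Mlst8 (0.62 ± 0.11) and Mios (0.44 ± 0.10) as the first 4. In eWAT Mlst8 rose (0.37 ± 0.08) as the single call of 31 (3.78% of all genes called), and in liver 0 of 30 genes were called by edgeR, with 5 at an unadjusted p under 0.05. The list's medians were 0.05 in iWAT, 0.0087 in eWAT and -0.12 in liver.

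The genes most like each transporter over the 8 group means of log2 CPM were sought among 12698 genes. For Slc38a4 they were Hal, histidine ammonia lyase (Pearson r = 0.998), F13b and the glucose transporter Slc2a2. For Slc1a5 they were Dmrt2 (r = 0.998), Dnm3 and Lpar4, and for Slc7a10 Chpf (0.993), Ccn3 and Mogat1. For Slc38a1 they included the T cell signalling gene Stat4 (0.993) and Dapp1. For Slc7a8 they were Pde1c (0.972), Mettl16 and Dnajc13, and for Slc3a2 G3bp2 (0.960), Hacd1 and Tmem18. For Slc7a5 the list was Cyb561 (0.969), Ap1m2 and Kcnk1, for Slc7a1 Eml1 (0.995), Fbln5 and Abr, for Slc7a11 Anxa3 (0.993), Itprip and Lrrn4cl, and for Slc38a2 Sf3b6 (0.992), Psmd7 and Hnrnpab. These correlations describe 8 group means that share tissues and scaling and carry no p.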

How the data were processed

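Polyadenylated RNA of 40 mouse tissue libraries was sequenced after TruSeq RNA v2 preparation, which does not keep the strand. The authors deposited a table of expected counts per gene symbol, whole numbers without normalization. The submitters' processing notes give no roles for the tools FastQC, STAR 2.7.8a, RSEM 1.3.0 and DESeq or for the builds, GRCm38 and GRCm39. Annotation and filters are not given in the sources used here. The table had 260093 lines for 53863 symbols, because it was joined by symbol from blocks of 35 and 5 columns (the 5 being thermoneutral liver). The 78 symbols on several lines were reduced to sums, and all 10 transporters stood on 1 line each. Every column had a sample. Total counts were 46508261 to 86681722 per library. Counting error at this depth is far below the spread between libraries except for genes near 0, and no replicate pair agreed within sampling noise (chi-square per degree of freedom 43.6 or more).

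Cold and thermoneutral libraries were compared in each tissue (10 libraries) with edgeR 4.0.16 in R 4.3.3 by its robust quasi-likelihood F-test after filterByExpr (minimum count 10, minimum total count 15) and TMM scaling. Tissue differences and differences of the cold effect were contrasts of a model of 8 group means over 40 libraries and 20756 genes. CPM used TMM sizes of all 40 libraries, so ratios of CPM need not equal fitted folds. CPM per kb used exon lengths of the GENCODE annotation of GRCm38, in which gene positions are given. Alternatives were DESeq2 1.42.0, limma-voom (limma 3.58.1), median-of-ratios or library-total scaling, no filter, a replicate block, a lymphocyte covariate in iWAT, the 8-group contrast and leaving out each library. The scripts were tested on simulated data.

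The genes and lists were chosen with earlier results of these data known. All 10 transporters are described, up to 4 called genes of smallest p are named per other list and tissue, and 3 genes most alike per transporter (highest group mean of at least 5 CPM), of which 1 is not reported here. Promoter sequences are those of RefSeq for GRCm38.p6.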

Additional observations from a re-analysis of the deposited data

Results flagged for a closer look

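In 13 of 80 groups of 5 libraries a single library lay far from the others, at a limit that chance passes in about 1 in 20 groups. In cold BAT these were library 1 for Slc7a1 (34.0 CPM, the others 5.22 to 10.98), Slc7a5 (9.62 CPM, 1.03 to 3.03) and Slc7a11 (8.20 CPM, 0.11 to 0.75), and library 2 for Slc38a1 (3.59 CPM, 0.37 to 0.92). In thermoneutral BAT it was library 5 for Slc7a8 (8.64 CPM, 3.01 to 4.13). In cold eWAT library 1 stood out for Slc7a1 (48.7 CPM, 15.5 to 18.3), Slc7a5 (126 CPM, 19.95 to 27.4) and Slc7a8 (60.8 CPM, 27.8 to 34.6). In thermoneutral iWAT it was library 3 for Slc38a4 (10.4 CPM, 1.45 to 2.22). In liver cold library 2 was high for Slc7a10 (0.14 CPM, 0 to 0.03), as were thermoneutral library 1 for Slc7a10 (0.26 CPM, 0 to 0.02) and Slc1a5 (6.77 CPM, 2.77 to 3.80) and thermoneutral library 3 for Slc38a2 (228 CPM, 148 to 161).

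The cold effect differed between tissues in 17 of 60 comparisons. In iWAT minus BAT the differences on the log2 scale were -1.48 for Slc7a1, -2.44 for Slc7a5, -3.94 for Slc7a8, -4.22 for Slc7a11, -1.14 for Slc3a2 and 1.75 for Slc1a5. In eWAT minus BAT they were -3.87 for Slc7a8, -1.83 for Slc7a10, -1.73 for Slc3a2 and 1.45 for Slc1a5. In liver minus BAT they were -5.51 for Slc7a8, -3.06 for Slc7a10, -2.33 for Slc3a2 and 1.71 for Slc1a5. In liver minus iWAT they were -1.57 for Slc7a8 and -1.19 for Slc3a2, and in liver minus eWAT -1.64 for Slc7a8.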

How the results depend on the processing

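The number of transporters called in BAT was 6 under each other scaling, tool and filter, 8 in the contrast of the 8-group model (Slc7a1 and Slc7a11 added), 5 with the replicate block and 6 to 7 with any library left out. In iWAT it was 3, with 2 to 4 under the alternatives (2 with library totals, the replicate block or the lymphocyte covariate, 4 by DESeq2) and 2 to 3 with a library left out. In eWAT it was 1, against 2 by DESeq2, with median-of-ratios size factors and in the 8-group contrast, 0 with the replicate block and 0 to 1 with a library left out. In liver it was 0, against 2 by DESeq2, 1 in the 8-group contrast and 0 to 3 with a library left out. Cold effects differed between tissues in 17 comparisons, and in 12 to 18 with a library left out.

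Directions turned in differences that were not called and in the pair of called ones named as such. With the lymphocyte covariate in iWAT, Slc7a5 had 0.039, Slc7a11 0.64 and Slc38a1 0.14 in place of -0.59, -1.52 and -1.16. With library totals Slc7a5 in liver had -0.047 and the called level of Slc3a2 in cold eWAT over cold BAT had 0.35. With single libraries left out, Slc38a4 ran from -0.43 to 0.27 in BAT, from -0.95 to 0.39 in iWAT and from -0.49 to 0.069 in eWAT, Slc38a1 in eWAT from -0.12 to 0.30, Slc7a5 in liver from -0.061 to 0.23, and the called Slc7a10 difference of liver from BAT from -4.28 to 0.072. The cause was not tested.

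Whether replicate numbers pair the tissues of 1 mouse was not settled, since libraries of unlike number were not compared for reference. Cold and thermoneutral libraries came from different mice, so an equal number does not pair them by animal. If 1 mouse gave several tissues, the main model of 40 libraries, which has no block, did not account for it. Between cold and thermoneutral libraries of the same number, deviations from the group means correlated by over 0.1 in 2 of 5 BAT pairs, 1 iWAT pair, 2 eWAT pairs and 0 liver pairs. Between tissues of the same exposure no set of 5 pairs was wholly over 0.1, the most being 4 of 5 (thermoneutral iWAT and eWAT, up to 0.405), then 3 of 5 (cold iWAT with eWAT and with BAT). The replicate block within a tissue joined different mice of equal number, so its result does not bear on pairing by animal. With it BAT had 5 calls, iWAT 2, eWAT 0 and liver 0, Slc7a5 in BAT, Slc38a2 in iWAT and Slc3a2 in eWAT being lost (adjusted p = 0.0837, 0.0558 and 0.0781). In the model of 40 libraries the block was by number within each exposure. It ended 4 calls of a cold effect differing between tissues, iWAT minus BAT for Slc7a1 and Slc7a11 (adjusted p = 0.0742 and 0.226) and, for Slc7a8, liver minus iWAT and liver minus eWAT (adjusted p = 0.0515 and 0.0695).

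Counts over all genes depended on the tool. In iWAT 1926 genes were called, against 3208 by DESeq2, 1217 without a filter and 108 with the block. In eWAT 722 were called, against 2101, 372 and 22 in that order. In liver 240 were called, against 1652 by DESeq2, 2562 in the 8-group contrast, 5 with the block, 1 by limma-voom and 16 with library totals, of which 31.2% were higher (60.8% of the 240). For differences of the cold effect, eWAT minus iWAT had 33 calls against 79 by limma-voom, 18 with library totals and 13 without a filter, liver minus iWAT 1317 against 793 with library totals, and liver minus eWAT 569 against 251 by limma-voom. Library totals shifted the median change of the tested genes to -0.16 in both iWAT and liver. Slc7a10 and Slc7a11 were too low at these depths to be compared within liver.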
